A study of Rattus norvegicus with 36 samples.

Results

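The genes described here are 10 genes of the circadian clock, Clock, Npas2, Per1, Per2, Per3, Cry1, Nr1d1, Nr1d2, Dbp and Tef, measured in rat liver. They were taken as the probe sets that the platform annotation assigns to exactly 1 gene, that gene being on the list. This gave 19 probe sets for the 10 genes, of 31042 probe sets and 14217 genes in all. Each gene is represented by its probe set with the highest mean over all arrays.

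The study gave TBBPA-DBPE, a brominated flame retardant derived from tetrabromobisphenol A, to male Harlan Sprague Dawley rats and compared each dose with the vehicle in gene expression of the liver. There were 6 groups of 6 animals. One received corn oil alone (vehicle, 0 mg/kg) and the other groups received 943, 94.3, 9.4, 0.94 or 0.1 mg/kg in corn oil. Dosing began at 7 weeks of age and went on for 5 days by gavage, and the liver was taken 1 day after the final dose, so that the controls also carried corn oil and gavage. RNA of the left liver lobe was hybridised to 1 Affymetrix rat array per animal, and the values are log2 signals. The time of day of dosing and of necropsy is not given in the sources used here, so any difference in sampling time between animals or groups was not tested.

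In the mammalian clock, CLOCK or its relative NPAS2 pairs with BMAL1 and activates genes through E-box elements. Among the genes they activate are the Per and Cry genes, whose proteins inhibit CLOCK and BMAL1 in turn, and Nr1d1 and Nr1d2, which encode the REV-ERB receptors that repress Bmal1. Dbp and Tef are output factors that activate genes through D-box elements, and in liver the clock times much of bile acid, lipid and glucose metabolism.

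Promoter sequence was found for 9 of the 10 genes, and for Bmal1, in RefSeq's table for the assembly GRCr8, and Cry1 had no entry. The windows run from 250 bases before the annotated start to 50 bases after it and were searched on both strands for the E-box CACGTG, the related E'-box CACGTT, the D-box TTATGTAA and its variant TTACGTAA, the element TAGGTCA shared by ROR and REV-ERB receptors, and the cAMP element TGACGTCA. The bases before the start are shown for the windows that hold 1 or more of these and whose genes recur in the results below, each 5′ to 3′ on the gene's strand with the match in capitals.
Tef, chr7:115206577-115206826, plus strand: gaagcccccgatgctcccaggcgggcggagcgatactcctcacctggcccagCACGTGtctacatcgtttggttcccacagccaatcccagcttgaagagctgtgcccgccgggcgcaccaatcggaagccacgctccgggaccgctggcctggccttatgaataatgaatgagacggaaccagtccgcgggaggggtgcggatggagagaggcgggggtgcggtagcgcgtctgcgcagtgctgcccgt
Nr1d1, chr10:84229455-84229704, minus strand: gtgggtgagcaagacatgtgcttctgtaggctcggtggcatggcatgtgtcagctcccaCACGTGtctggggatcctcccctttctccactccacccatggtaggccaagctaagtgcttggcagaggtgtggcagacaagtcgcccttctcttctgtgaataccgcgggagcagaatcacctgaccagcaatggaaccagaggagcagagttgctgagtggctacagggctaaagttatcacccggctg
Per2, chr9:99496994-99497243, minus strand: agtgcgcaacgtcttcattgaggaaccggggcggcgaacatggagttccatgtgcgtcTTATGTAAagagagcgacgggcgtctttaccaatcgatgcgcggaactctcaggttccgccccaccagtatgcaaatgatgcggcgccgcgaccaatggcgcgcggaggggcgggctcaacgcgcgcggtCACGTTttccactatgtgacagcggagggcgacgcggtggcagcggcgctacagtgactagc
Bmal1, chr1:176766078-176766327, plus strand: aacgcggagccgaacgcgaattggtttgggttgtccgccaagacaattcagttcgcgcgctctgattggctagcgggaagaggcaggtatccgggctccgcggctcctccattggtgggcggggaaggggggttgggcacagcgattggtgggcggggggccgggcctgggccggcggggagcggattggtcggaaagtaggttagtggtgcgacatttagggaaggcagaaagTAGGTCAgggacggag

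Counted from the annotated start, the capitals mark an E-box in Tef that begins at position -198, an E-box in Nr1d1 at -191, and a D-box and an E'-box in Per2 at -192 and -62. The capitals in Bmal1 mark the receptor element, which begins at position -16. A second Nr1d1 window held an E'-box on the opposite strand. The E-box was found in 6.42% of 33469 RefSeq promoter windows of the same length, the E'-box in 4.83%, the D-box in 0.893%, its variant in 0.12%, the receptor element in 2.63% and the cAMP element in 1.83%. The windows of Clock, Npas2, Per1, Per3, Nr1d2 and Dbp held none of these letters. A match describes the letters only.

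The arrays were alike. Array medians lay between 4.59 and 4.66 and pairs of arrays correlated at 0.989 to 0.997 across probe sets. All 7 hepatocyte markers examined lay above the array median on at least 1 array, and their mean was 13.2 to 13.3 on every array. The 2 markers of other cell types that lay below the median on every array were Krt7 of bile duct cells and Csf3r of neutrophils. In whole liver, fewer cells of a type and less RNA per cell cannot be told apart. The labels give 1 array per animal, so the tests here take the animal as the unit and rest on the spread between these animals.

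None of the 10 clock genes differed from vehicle at any of the 5 doses after adjustment over all probe sets (limma, Benjamini-Hochberg). This was also true of every other probe set, so that 0% of 31042 was called at each dose. At an unadjusted p under 0.05, 0 of the 10 genes were reached at 0.1 mg/kg, 0 at 0.94 mg/kg, 1 at 9.4 mg/kg, 1 at 94.3 mg/kg and 0 at 943 mg/kg, where 5.62%, 4.16%, 4.85%, 6.9% and 5.74% of all probe sets were. For none of the 10 genes did the 6 animals of a dose lie wholly outside the range of the vehicle animals, which was the case for 0.235%, 0.206%, 0.184%, 0.296% and 0.261% of all probe sets at the 5 doses in rising order. The doses share the same 6 vehicle arrays, so the 5 comparisons are not independent.

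The direction was uneven across doses. Against vehicle, 9 of the 10 genes had a lower mean at 0.1 mg/kg, 6 at 0.94 mg/kg, 9 at 9.4 mg/kg, 7 at 94.3 mg/kg and 8 at 943 mg/kg. Of all genes, 50.6%, 51.4%, 51.2%, 52.5% and 50.8% had a higher mean at these doses. Some of the 10 genes varied together between animals, as given below, so these are not counts of independent genes. The median log2 difference of the 10 genes was -0.06, -0.01, -0.14, -0.03 and -0.12 in that order, beside a median over all genes of 0.00, 0.00, 0.00, 0.01 and 0.00. With each animal left out in turn the median of the 10 genes ran from -0.09 to -0.03 at 0.1 mg/kg, from -0.17 to -0.07 at 9.4 mg/kg, from -0.06 to -0.01 at 94.3 mg/kg and from -0.14 to -0.07 at 943 mg/kg. At 0.94 mg/kg it ran from -0.03 to 0.04 and so had no settled sign. Cry1 was the gene with the highest difference at 0.1, 9.4 and 943 mg/kg, at 0.17, 0.14 and 0.16, and Dbp at 0.94 and 94.3 mg/kg, at 0.23 and 0.15. The lowest was Dbp at 0.1 mg/kg, Npas2 at 0.94 and 94.3 mg/kg, Nr1d1 at 9.4 mg/kg and Nr1d2 at 943 mg/kg. In the order of the 6 group means, no step between neighbouring groups was as large as the SD between animals of a group, for any of the 10 genes. A mean of 6 animals varies less than single animals do, so this comparison cannot decide whether a group differed. The span from the highest to the lowest group mean was 0.81 (Cry1) to 1.71 (Nr1d1) times that SD. The highest and the lowest group overlapped for each gene.

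**Figure D1:**
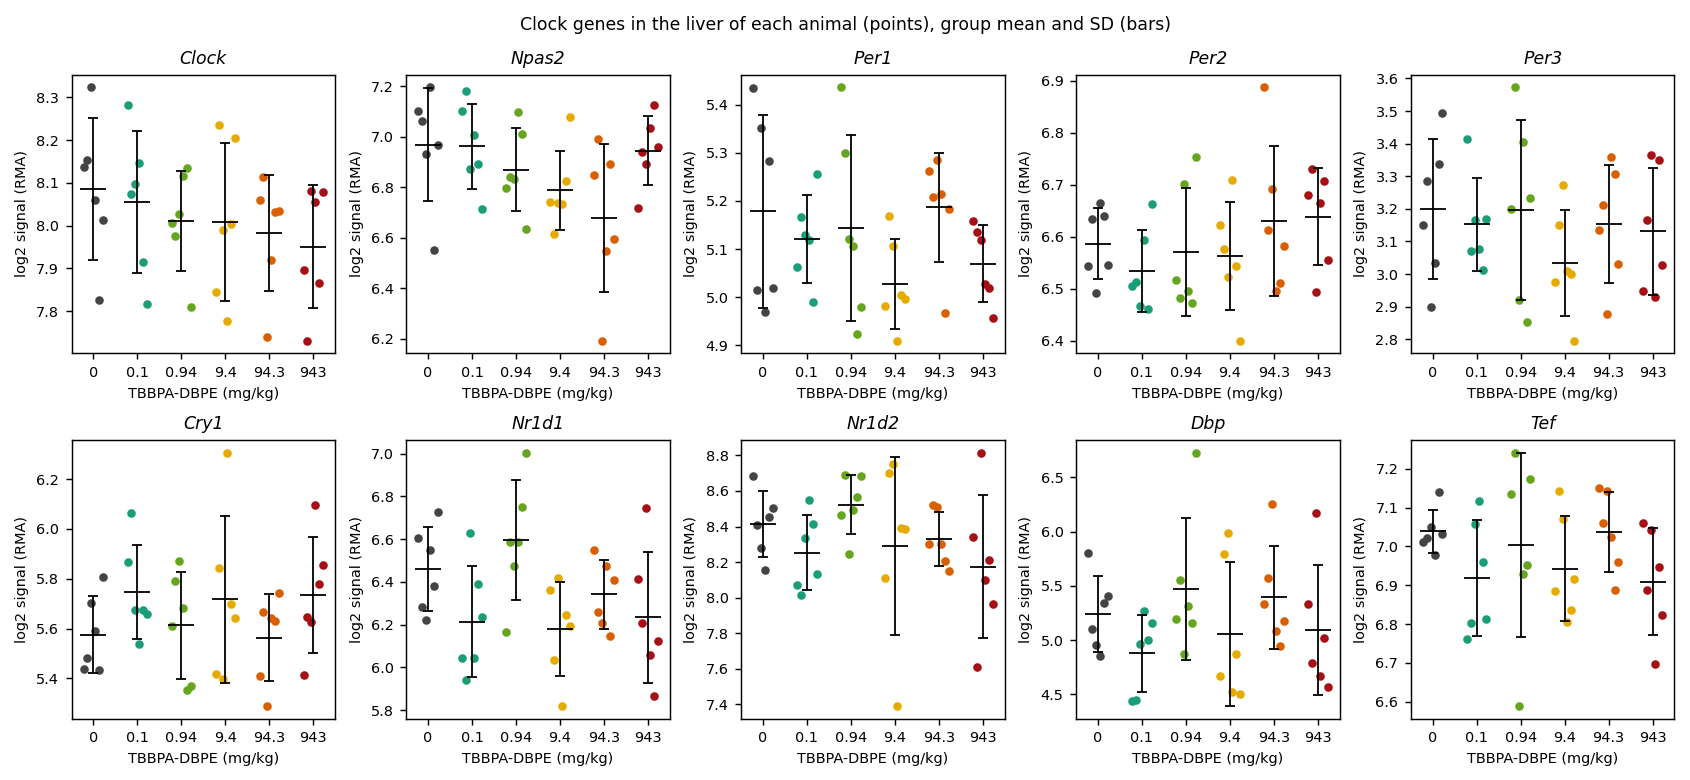
Log2 signal (vertical axes, RMA) of the 10 clock genes in each of the 36 animals by dose of TBBPA-DBPE in mg/kg (horizontal axes); points are animals, the bars the group mean and SD, n = 6. The groups overlap in every panel, and the Dbp panel spans 4.43 to 6.73.

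Clock and Npas2 form the positive arm together with Bmal1. The signal of Npas2 in vehicle animals was 6.55 at the lowest, 7.02 at the median and 7.20 at the highest. At 9.4 mg/kg these values were 6.61, 6.74 and 7.08, at 94.3 mg/kg 6.19, 6.72 and 6.99, and at 943 mg/kg 6.72, 6.95 and 7.13. The group at 94.3 mg/kg thus held the animal with the lowest signal of all 36 and overlapped the vehicle range, while the group at 943 mg/kg lay inside the vehicle range. Npas2 had its lowest mean at 94.3 mg/kg, 6.68 ± 0.29 (SD, n = 6) against 6.97 ± 0.22 in vehicle. The log2 difference was -0.29 ± 0.11 (SE), with a 95% interval of -0.51 to -0.07, an unadjusted p of 0.0119 and an adjusted p of 0.576 (limma). The group at 943 mg/kg was 0.27 ± 0.11 (SE) above the group at 94.3 mg/kg, with an unadjusted p of 0.0199 and an adjusted p of 0.794 (limma), where 5.7% of all probe sets reached an unadjusted p under 0.05 and 0% the adjusted threshold. Leaving out each animal of the groups compared gave -0.37 to -0.19 for the first difference and 0.17 to 0.33 for the second. Without the third animal of the 94.3 mg/kg group the second difference was 0.17, which is 1.57 times smaller.

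Clock is the partner of BMAL1 in most tissues. On its main probe set its means fell with each dose, 8.09 in vehicle, 8.06, 8.01, 8.01 and 7.98 at the next 4 doses and 7.95 at 943 mg/kg. The range in vehicle was 7.83 to 8.32 and at 943 mg/kg 7.73 to 8.08, so that the groups overlapped over most of their width. A slope over dose rank was -0.03 ± 0.01 (SE) per step, with an unadjusted p of 0.0772 and an adjusted p of 0.875 (limma). Over that slope 0% of all probe sets were called and 5.68% had an unadjusted p under 0.05. Clock has 3 further probe sets. In deviations from the group means, those at mean signals of 6.99 and 5.30 followed the main one with r = 0.78 and 0.66, and the dimmest, at 3.87, did not, with r = -0.13. On none of the 3 did the means fall with each dose. From the brightest to the dimmest their slopes were -0.03, -0.02 and 0.01 per step. The unadjusted p was 0.044, 0.24 and 0.55 (limma), and none passed after adjustment.

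Bmal1, formerly named Arntl and not one of the 10 genes, had a mean of 6.48 ± 0.15 (SD, n = 6) in vehicle. Its group means lay between 6.37 ± 0.18 at 0.94 mg/kg and 6.59 ± 0.16 at 0.1 mg/kg.

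Per1, Per2, Per3 and Cry1 encode the inhibitors of the negative arm. Cry1, a repressor of CLOCK and BMAL1, ranged from 5.43 to 5.81 in vehicle with a median of 5.54. At 0.1 mg/kg it ranged from 5.54 to 6.06 (median 5.67), at 0.94 mg/kg from 5.35 to 5.87 (median 5.65), at 9.4 mg/kg from 5.40 to 6.31 (median 5.67) and at 943 mg/kg from 5.41 to 6.10 (median 5.71). At 94.3 mg/kg it ranged from 5.29 to 5.74 (median 5.64). Every dose overlapped the vehicle range. From 0.1 to 943 mg/kg, 2, 1, 2, 0 and 2 animals lay above that range and 0, 2, 2, 2 and 1 below it. The difference from vehicle at 0.1 mg/kg was 0.17 ± 0.12 (SE), with a 95% interval of -0.08 to 0.42 and an adjusted p of 0.916 (limma).

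The means of the Per genes lay close together. Per1, an inhibitor that also answers quickly to hormonal signals, had group means between 5.03 ± 0.09 (SD, n = 6) at 9.4 mg/kg and 5.19 ± 0.11 at 94.3 mg/kg, with 5.18 ± 0.20 in vehicle. Per2 had group means between 6.53 at 0.1 mg/kg and 6.64 at 943 mg/kg. Per3 lay below the median of every array on both of its probe sets, with group means between 3.03 and 3.20, which makes the size of any difference in it uncertain. The 2 probe sets of Per2 did not follow each other between animals (r = 0.03), nor did those of Per3 (r = -0.09).

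Nr1d1 and Nr1d2 encode the REV-ERB receptors. The signal of Nr1d1 in vehicle was 6.22 at the lowest, 6.47 at the median and 6.72 at the highest. At 0.1 mg/kg it was 5.94, 6.14 and 6.63, at 0.94 mg/kg 6.16, 6.59 and 7.00, and at 9.4 mg/kg 5.82, 6.22 and 6.42. At 94.3 mg/kg it was 6.15, 6.33 and 6.55, and at 943 mg/kg 5.87, 6.16 and 6.74. The highest animals were thus in the 0.94 mg/kg group and the lowest in the 9.4 mg/kg group, with overlap between them. The difference at 9.4 mg/kg was -0.28 ± 0.13 (SE), with a 95% interval of -0.55 to -0.01, an unadjusted p of 0.0414 and an adjusted p of 0.980 (limma), and -0.33 to -0.21 when each animal of the 2 groups was left out. Nr1d1 had the largest share of variance between dose groups of the 10 genes, 31.0%, with a moderated F test over the doses at an unadjusted p of 0.0231 and an adjusted p of 0.918 (limma). That F test called 0% of all probe sets, and 5.35% had an unadjusted p under 0.05. The median share of variance between groups was 14.2% for the 10 genes and 13.8% for all genes.

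Nr1d2 ranged from 8.15 to 8.69 in vehicle (median 8.43) and from 7.61 to 8.82 at 943 mg/kg (median 8.16). At 9.4 mg/kg it ranged from 7.39 to 8.75 (median 8.39). The spread between animals was thus wider at these 2 doses, and both groups reached above and below the vehicle range. The difference at 943 mg/kg was -0.24 ± 0.16 (SE), with a 95% interval of -0.57 to 0.09 and an adjusted p of 0.875 (limma). The other 2 probe sets of Nr1d2 followed the main one between animals, with r = 0.92 and 0.73. On the dimmer of them the difference was -0.37 at 0.1 mg/kg and -0.39 at 9.4 mg/kg, with an unadjusted limma p of 0.038 and 0.027, and neither passed after adjustment.

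Dbp is a D-box activator whose transcript is among the most rhythmic in liver. In vehicle animals its signal was 4.85 at the lowest, 5.22 at the median and 5.80 at the highest. At 0.1 mg/kg it was 4.43, 4.98 and 5.26, at 0.94 mg/kg 4.88, 5.25 and 6.73, and at 9.4 mg/kg 4.50, 4.77 and 5.99. At 94.3 mg/kg it was 4.95, 5.25 and 6.25, and at 943 mg/kg 4.57, 4.90 and 6.17. From 0.1 to 943 mg/kg, 0, 1, 1, 1 and 1 animals lay above the vehicle range and 2, 0, 3, 0 and 3 below it. No group was separate from another. The largest difference was at 0.1 mg/kg, -0.36 ± 0.28 (SE), with a 95% interval of -0.94 to 0.21 and an adjusted p of 0.925 (limma). Over all 36 animals the signal ran from 4.43 to 6.73, a 4.91-fold range.

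Tef, a second D-box activator of the same family, ranged in vehicle only from 6.98 to 7.14 around a median of 7.03. At 0.94 mg/kg it ranged from 6.59 to 7.24 and at 943 mg/kg from 6.70 to 7.06. On this probe set the vehicle animals were thus closer together than those of the dosed groups, with an SD of 0.05 against 0.10 to 0.24. On the 2 other Tef probe sets they were not, with 0.16 against 0.11 to 0.39 and 0.13 against 0.11 to 0.20. The difference at 943 mg/kg was -0.13 ± 0.08 (SE) with an adjusted p of 0.874 (limma). Of the 2 other Tef probe sets, one followed the main one between animals (r = 0.57) and one, at a mean signal of 4.40, less so (r = 0.16).

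**Figure D2:**
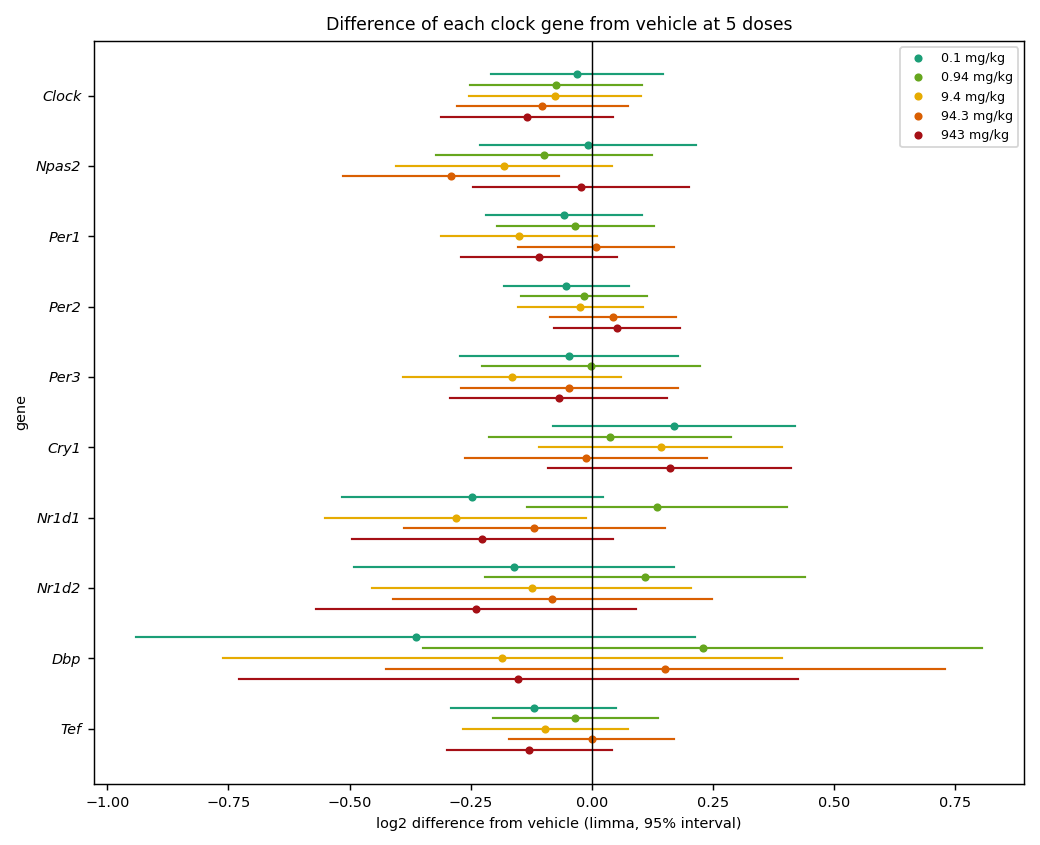
Log2 difference from vehicle (horizontal axis) of each clock gene (vertical axis) at 5 doses; points are limma estimates and lines their 95% intervals. The interval leaves out 0 for Npas2 at 94.3 mg/kg and Nr1d1 at 9.4 mg/kg, and Dbp has the widest intervals.

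The positive and negative arms were set against each other in a phase index. It is, per animal, the mean log2 signal of Clock and Npas2 minus the mean of Per1, Per2, Per3, Cry1, Nr1d1 and Nr1d2. Because the members were chosen with earlier results known, the index carries no test, and since it mixes probe sets its level has no meaning by itself. In vehicle it ran from 1.27 to 1.80 around a median of 1.70. At 0.1 mg/kg it ran from 1.41 to 1.86 (median 1.67), at 0.94 mg/kg from 1.22 to 1.75 (1.52) and at 9.4 mg/kg from 1.45 to 1.90 (1.56). At 94.3 mg/kg it ran from 1.16 to 1.67 (1.50) and at 943 mg/kg from 1.46 to 1.77 (1.63). The groups overlapped throughout. Group means were 1.62, 1.67, 1.50, 1.60, 1.46 and 1.62 from vehicle to the highest dose. The largest difference from vehicle was -0.16 at 94.3 mg/kg. The pooled SD between single animals was 0.18, which is not the error of a difference of means. With each animal of the 2 groups left out in turn, the difference ran from -0.23 to -0.10 at 94.3 mg/kg and from -0.20 to -0.07 at 0.94 mg/kg, and it took both signs at 0.1, 9.4 and 943 mg/kg. At 0.1 mg/kg it was 0.05 and turned to -0.02 without the fifth vehicle animal. With Bmal1 added to the positive arm, an alternative chosen after seeing the data, the differences were 0.09, -0.13, 0.02, -0.08 and 0.05 from the lowest to the highest dose. The difference at 94.3 mg/kg was then the smaller of the negative ones, and those at 9.4 and 943 mg/kg were positive where the index without Bmal1 gave -0.03 and -0.01. The share of variance between groups was 16.6% for the index, 17.5% for the positive arm and 28.9% for the negative arm. The negative arm mean was lowest at 9.4 mg/kg, 5.80 ± 0.09 (SD, n = 6) against 5.90 ± 0.08 in vehicle, and 4 of the 6 animals there lay below the vehicle range. The same was true of 3 animals at 0.1 mg/kg, 1 at 0.94 mg/kg, 2 at 94.3 mg/kg and 4 at 943 mg/kg.

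**Figure D3:**
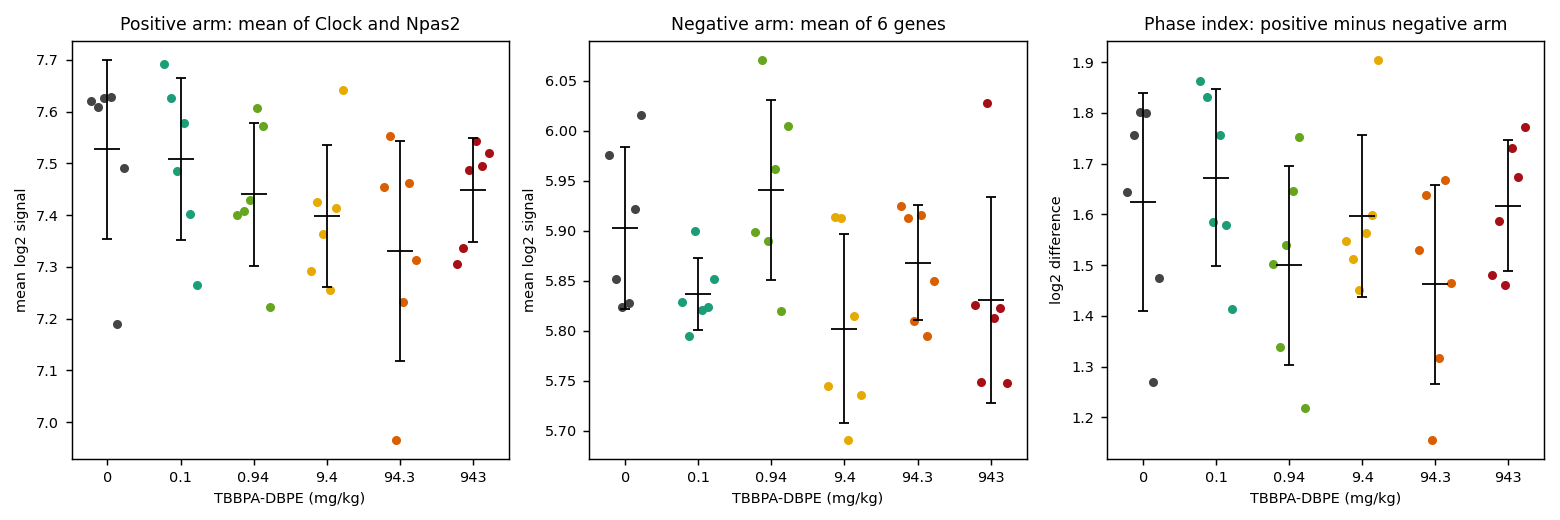
Mean log2 signal of the positive arm (left), of the negative arm (middle) and their difference, the phase index (right), by dose in mg/kg; points are animals, bars the group mean and SD, n = 6. The index overlaps between all groups, with means from 1.46 to 1.67.

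Most of the variation in the clock genes lay between animals of the same group, as it did for genes in general. The median share between groups was 14.2% for the 10 genes and 13.8% for all genes, so this is no trait of the clock genes. The residual SD, the log2 spread between animals once group means are taken off, was 0.53 for Dbp, above that of 99.1% of all genes. It was 0.30 for Nr1d2 (95.7%), 0.24 for Nr1d1 (92.3%) and 0.22 for Cry1 (90.2%). Among genes whose mean lay within 0.5 of their own on the log2 scale, the percentiles were 99.1 for Dbp, 94.9 for Nr1d2, 89.8 for Nr1d1 and 87.4 for Cry1, so that 2 and not 4 of the 10 genes were above the 90th. The residual SD was 0.20 for Npas2 and Per3, 0.15 for Clock and Tef, 0.14 for Per1 and 0.11 for Per2, the last at the 19.8th percentile. The median was 0.20 over the 10 genes and 0.14 over all genes. The other probe set of Per2, at a lower signal, had a residual SD of 0.32, so that the place of Per2 depends on the probe set.

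Some pairs of the genes varied together between animals. Over deviations from the group means in 36 animals, 12 of the 45 pairs of clock genes correlated past an adjusted p of 0.05 (two-sided permutation test of Pearson's r with 100000 resamples of animals within groups, Benjamini-Hochberg over the 45 pairs), 6 positively and 6 negatively. By Spearman's rho 11 pairs passed. Pairs of genes in general were not put through the permutation test, so these counts have no background share. The share of 14216 other genes with an absolute r of at least 0.5 depended on the clock gene. It was highest with Clock, at 6.30%, and lowest with Per3, at 0.113%. With Nr1d2 it was 3.43% and with Dbp 0.851%. The points share the arrays and their normalization, and a correlation is no measure of control of one gene by another.

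Dbp, Tef and Nr1d2 rose and fell together between animals on their main probe sets. With Dbp, the other 2 probe sets of Tef had r = 0.63 and, for the dimmest, 0.05. Those of Nr1d2 had 0.64 and 0.51. Dbp and Nr1d2 correlated at r = 0.74 and rho = 0.81, with a permutation p of 1e-05 for each, the smallest the resampling can give, and an adjusted p of 0.00045 for r. Within the 6 groups r lay between 0.72 and 0.97, and without the 2 animals farthest in Dbp it was 0.74. Dbp and Tef correlated at r = 0.67 and rho = 0.74 (permutation p = 0.00018, adjusted 0.0027), with 0.17 to 0.89 within groups and 0.65 without the 2 farthest animals. Tef and Nr1d2 correlated at r = 0.61 and rho = 0.71 (permutation p = 2e-05, adjusted 0.00045), with 0.20 to 0.93 within groups and 0.63 without the 2 farthest animals. The lowest of the within-group values of Tef was that of the vehicle group in both cases, where Tef spanned the narrowest range on its main probe set. In animals, the highest Dbp of all, 6.73 in the 0.94 mg/kg group, went with an Nr1d2 signal of 8.69, at the upper end of that group. The highest Dbp of the 943 mg/kg group, 6.17, went with the highest Nr1d2 of all animals, 8.82.

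Cry1 varied against these genes. It correlated with Dbp at r = -0.51 and rho = -0.51 (permutation p = 0.0065, adjusted 0.033) and with Tef at r = -0.51 and rho = -0.46 (permutation p = 0.0041, adjusted 0.028). With Nr1d2 the values were r = -0.53 and rho = -0.46 (permutation p = 0.011, adjusted 0.043) and with Nr1d1 r = -0.50 and rho = -0.49 (permutation p = 0.0049, adjusted 0.028). The first 3 relations were negative within every dose group, at -0.93 to -0.31, -0.92 to -0.24 and -0.83 to -0.27, and that with Nr1d1 was negative in 4 of the 6, at -0.98 to 0.27. Without the 2 farthest animals the 4 values were -0.46, -0.43, -0.32 and -0.39, and none then passed with the fewer animals. Cry1 thus tended to be high in animals with low Dbp.

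Within the positive arm, Clock and Npas2 correlated at r = 0.58 and rho = 0.52 (permutation p = 0.00052, adjusted 0.0058), positively in all 6 groups at 0.02 to 0.94, and at 0.41 without the 2 farthest animals, where it did not pass. Npas2 and Dbp correlated at r = -0.47 and rho = -0.43 (permutation p = 0.0036, adjusted 0.028), negatively in all 6 groups at -0.74 to -0.15, and at -0.41 without the 2 farthest animals, where it did not pass. Dbp and Nr1d1 correlated at r = 0.49 and rho = 0.43 (permutation p = 0.0078, adjusted 0.035), with -0.29 to 0.83 within groups and only 0.24 without the 2 farthest animals. Nr1d1 and Nr1d2 correlated at r = 0.46 and rho = 0.39 (permutation p = 0.010, adjusted 0.043), with -0.30 to 0.64 within groups and 0.36 without the 2 farthest animals. Neither relation of Nr1d1 passed without those animals, and neither passed by Spearman's rho. Per2 and Clock correlated at r = -0.48 and rho = -0.49 (permutation p = 0.0043, adjusted 0.028), with -0.83 to 0.03 within groups and -0.57 without the 2 farthest animals. With the other probe set of Per2 the value was 0.24, so that this relation holds for 1 probe set of Per2 and not for the gene.

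**Figure D4:**
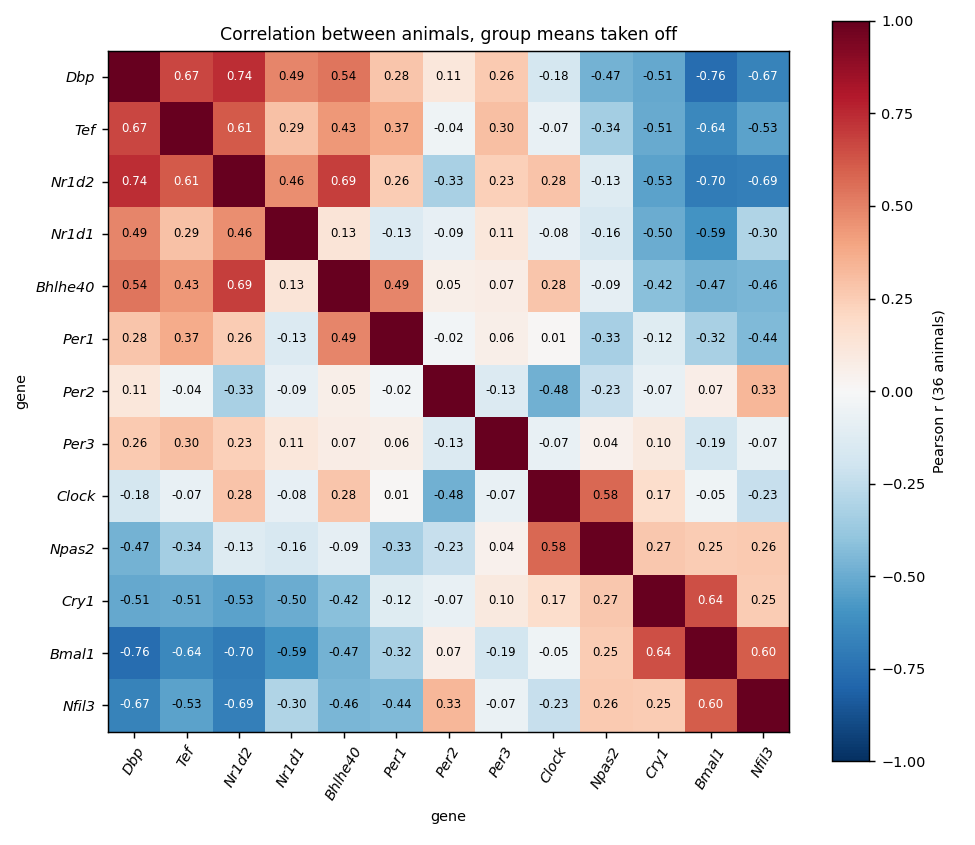
Pearson r over 36 animals between the 10 clock genes and Bmal1, Nfil3 and Bhlhe40, after the group means were taken off; red is positive and blue negative. Dbp, Tef and Nr1d2 form a positive block at 0.61 to 0.74, with Bmal1, Cry1 and Nfil3 against them.

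The relations were also tested with each gene as a term beside dose in a limma fit over all other probe sets. With Dbp as the term 8 of 31041 probe sets passed (0.0258%), among them Nr1d2 as the only 1 of the 9 other clock genes (adjusted p = 0.0064). With Nr1d2 as the term 209 of 31039 passed (0.673%), among them Dbp (adjusted p = 0.0025) and Tef (adjusted p = 0.044). With Clock as the term 802 of 31038 passed (2.58%), among them Npas2 (adjusted p = 0.027). With Per1 and Npas2 as terms 15 (0.0483%) and 6 (0.0193%) probe sets passed in limma, none of them clock genes, and with Per2, Per3, Cry1, Tef or Nr1d1 none passed (0%).

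Of 15 further measured clock genes, 3 reached an absolute r of at least 0.5 with Dbp, namely Bmal1, Nfil3 and Bhlhe40, and the median absolute r of the 15 was 0.12, beside 0.14 over all genes. Bmal1, which the REV-ERB receptors repress, had the lowest r with Dbp of all 7102 genes with a mean signal above the median of genes, at r = -0.76 and rho = -0.75 (permutation p = 1e-05). Within the 6 groups r was -0.87 to -0.44, without the 2 farthest animals it was -0.74, and limma over all probe sets gave an adjusted p of 0.0064. Bmal1 also correlated with Nr1d2 at -0.70 (limma adjusted p = 0.014). With Bmal1 as the term 3 of 31041 probe sets passed in limma (0.00966%), 2 of them those of Dbp and Nr1d2. In the 94.3 mg/kg group, where Dbp reached 6.25, Bmal1 stayed between 6.44 and 6.69, and in the 9.4 mg/kg group it spanned 5.99 to 6.85.

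Nfil3, a repressor that binds the same D-box elements as Dbp, varied against Dbp at r = -0.67 and rho = -0.59 (permutation p = 0.00028), at -0.85 to -0.39 within groups and -0.56 without the 2 farthest animals (limma adjusted p = 0.041). At 0.1 mg/kg, where 0.235% of all probe sets lay wholly outside the vehicle range, Nfil3 did so too. Its 6 animals had 7.65 to 7.93 against 7.03 to 7.52 in vehicle. The log2 difference was 0.45 ± 0.19 (SE), with an unadjusted p of 0.024 and an adjusted p of 0.856 (limma), and it was 0.48 ± 0.19 (SE) at 9.4 mg/kg, where the groups overlapped (adjusted p = 0.980, limma). Bhlhe40, an E-box repressor also known as DEC1, varied with Dbp at r = 0.54 and rho = 0.54 (permutation p = 0.0021; limma adjusted p = 0.304) and with Nr1d2 at 0.69 (limma adjusted p = 0.0085). Its signal ran from 6.75 to 8.38 in vehicle and from 4.82 to 7.74 at 94.3 mg/kg, so that the groups overlapped. The difference there was -1.15 ± 0.52 (SE), with an unadjusted p of 0.032 and an adjusted p of 0.659 (limma). Rora, an activator of Bmal1, had r = -0.46 and rho = -0.41 with Dbp (permutation p = 0.00805; limma adjusted p = 0.497).

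**Figure D5:**
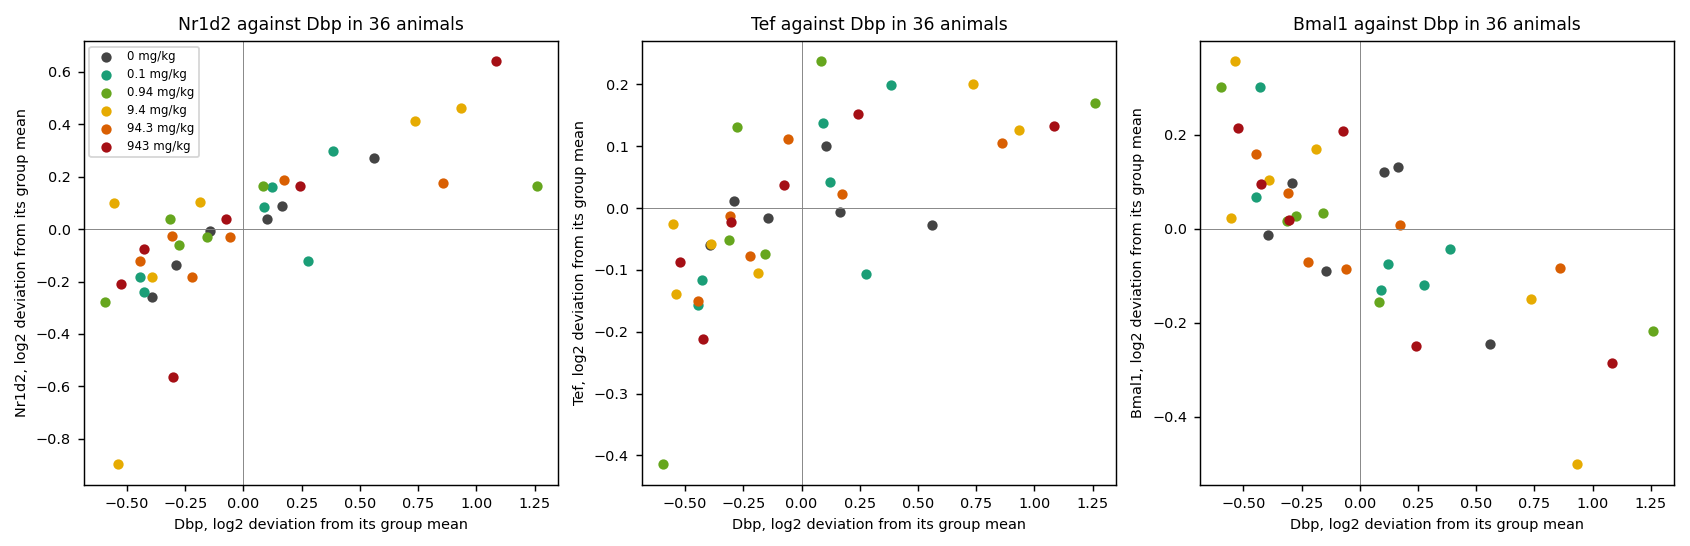
Deviation from the group mean in log2 of Nr1d2 (left), Tef (middle) and Bmal1 (right) on the vertical axes against that of Dbp on the horizontal axes; each point is 1 of 36 animals, coloured by dose. Pearson r is 0.74, 0.67 and -0.76, and animals of all 6 groups lie along each trend.

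Counted over the lists, an absolute r of at least 0.5 with Dbp was reached by 3 of the 9 other clock genes named at the outset, by 3 of 15 further measured clock genes, by 2 of 16 clock-driven liver genes, by 2 of 9 glucocorticoid responsive genes and by 0 of 6 temperature responsive genes. Over all 14216 other genes 121 reached it (0.851%). It was reached by 0 of the 36 measured markers of 8 cell types. The clock-driven genes were Ppard, a nuclear receptor of lipid metabolism (r = -0.57, rho = -0.47, permutation p = 0.0019; limma adjusted p = 0.321), and Insig2, an inhibitor of sterol synthesis (r = -0.56, rho = -0.55, permutation p = 0.0012; limma adjusted p = 0.286). The glucocorticoid responsive genes were Klf9, a Krüppel-like factor (r = 0.54, rho = 0.50, permutation p = 0.0023; limma adjusted p = 0.309), and Dusp1, a MAP kinase phosphatase (r = 0.52, rho = 0.47, permutation p = 0.0016; limma adjusted p = 0.321). Klf9 correlated with Nr1d2 at 0.75 (limma adjusted p = 0.0025). Of the 46 genes of these 4 lists, 2 thus passed with Dbp over all probe sets, Bmal1 and Nfil3, and 8 passed the permutation test of r with adjustment over the 46 relations.

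None of the genes of the 4 lists passed at any dose against vehicle (limma). The 15 further clock genes had median log2 differences of 0.02, 0.01, -0.03, 0.03 and 0.05 from the lowest to the highest dose. The 16 clock-driven genes had -0.03, -0.02, -0.03, 0.04 and -0.03, so that neither list lay far from the median of all genes.

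Among genes with a mean signal above the median, those whose deviations were most like those of Dbp were Gpr146 (r = 0.69), Hsd17b2 (0.65), Use1 (0.64), Pla2g12a (0.58) and Gdi2 (0.57). At the other end stood Bmal1, Adh1c (-0.71), Clpx (-0.70), Nfil3 and Aspg (-0.62). For Npas2 the most alike were Ptpn12 (r = 0.74), Qdpr (0.72), Lasp1 (0.72), Dnajb14 (0.70) and Pls3 (0.69), and the least alike Lamtor4 (-0.62), Paqr9 (-0.61), Tbc1d2 (-0.61), Cavin3 (-0.61) and Nubp1 (-0.60). The genes most like Dbp and most like Npas2 had no name in common.

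Of 11 relations of Dbp with the array median, with the end-to-end probe set differences of GAPDH and beta-actin and with the mean of 8 cell type marker lists, none passed a permutation test, unadjusted or adjusted over the 11. The largest was that with the bile duct marker mean, at r = -0.27 and rho = -0.33 (permutation p = 0.18 for r and 0.074 for rho, adjusted 0.73 and 0.47), with -0.75 to 0.59 within groups and -0.24 without the 2 farthest animals. The end-to-end differences, a measure of RNA quality, had r = 0.14 for GAPDH and 0.11 for beta-actin in all 36 animals, and 0.40 and 0.36 without the 2 farthest animals. Their part in the relations between the clock genes was not tested. The relation of Dbp to sampling time was not tested.

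The phase index varied against Dbp between animals. Dbp is no part of the index, but Nr1d2, Nr1d1, Npas2 and Cry1 are. The index thus restates in part their relations with Dbp given above. Over the deviations of 36 animals its r was -0.64 with Dbp, -0.45 with Tef and 0.38 with Bmal1. By arm, the negative arm mean had r = 0.69 with Dbp and -0.59 with Bmal1, and the positive arm mean had -0.38 and 0.14. The positive and negative arm means had r = -0.06 with each other. The negative arm mean pools genes that vary against each other, so this value does not describe its single genes. Cry1 had r = -0.50 with Nr1d1 and -0.53 with Nr1d2, but 0.64 with Bmal1. These values are descriptions, since the points share arrays and the index is a score over the members.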

How the data were processed

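The 36 arrays are single-colour Affymetrix rat arrays. The deposited values are log2 signals which, per the submitters' processing notes, the authors computed with affy by RMA. Gene names come from the platform annotation, in which 20826 probe sets name 1 gene, 436 several and 9780 none. 57 control probe sets were left out.

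The design text names R/maanova with a false discovery rate for each dose against vehicle. Here limma 3.58.1 in R 4.3.3 was fitted to all 36 arrays, with Benjamini-Hochberg adjustment over 31042 probe sets and a threshold of 0.05. It was tested on simulated data. Correlations were computed on deviations from the group means in Python 3.11.15 with seed 20.

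The clock genes and the other lists were chosen with earlier results of these data known. Named are the 10 members, up to 4 genes per list by absolute r with Dbp, and the 5 genes most and least like Dbp and Npas2. A gene that passed an unadjusted threshold is given as such. Alternatives were other normalizations, array weights, a filter on dim probe sets, a replicate block and leaving out animals or groups. The number of arrays limits precision. Same-numbered animals of different groups did not deviate together on average (mean r = 0.02, with 18 of 90 pairs over 0.1, against a mean of -0.003 for different numbers). Such a mean cannot decide whether the numbers mark a shared block.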

Additional observations from a re-analysis of the deposited data

Results flagged for a closer look

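In 3 of the 66 combinations of a gene or the phase index with a dose group, 1 animal stood far from the other 5 of its group by Dixon's test. Chance gives about 1 in 20 such groups. Per1 in the fifth animal at 94.3 mg/kg was low, at 4.97, with the nearest animal at 5.18. Dbp in the sixth animal at 0.94 mg/kg was high, at 6.73, with the nearest at 5.55. The phase index of the sixth animal at 9.4 mg/kg was high, at 1.90, with the nearest at 1.60.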

How the results depend on the processing

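No clock gene passed at any dose in any limma alternative, which were another quantile normalization, centring of each array, array weights, a variance trend, the brighter probe sets alone, only the 2 groups compared, a replicate block and leaving out each animal. Of all probe sets, 0 to 1 passed at 9.4 mg/kg when each animal was left out (1 without the third animal of that group) and 0 to 11 at 94.3 mg/kg (11 without the first animal of that group).

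The relations between animals depended more on the animals kept. Against 12 pairs in all, 7 passed without the vehicle animals, 4 without the 0.1 mg/kg group, 7 without the 0.94 mg/kg group, 7 without the 9.4 mg/kg group, 7 without the 94.3 mg/kg group and 5 without the 943 mg/kg group, each with fewer animals. Without the animal with the highest Dbp, an alternative added after seeing the data, 5 passed. Without the 2 animals farthest from the median in the first gene of each pair, 4 passed. Those animals differ with the first gene. The pairs of Dbp with Tef, Dbp with Nr1d2 and Tef with Nr1d2 passed in all 13 alternatives. The dimmest probe set of Tef, with r = 0.05 with Dbp, and the other probe sets of Nr1d2 were not among these. Per2 and Clock turned to r = 0.24 with the other probe set of Per2, also added after seeing the data. With the replicate number as a block the pairs of Npas2 with Dbp (r = -0.41) and Dbp with Nr1d1 (r = 0.45) did not pass, and 8 of 36 animals correlated best with their own number. The causes were not tested.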

Other observations

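The genes below reached an unadjusted p under 0.05 against vehicle or in the slope over dose, and none passed after adjustment. They are named here after their values were seen, and others of the lists are not shown. Hsph1, a heat shock protein, was lower in all 6 animals at 943 mg/kg than the vehicle mean, and 5 lay below the vehicle range. The log2 difference was -0.43 ± 0.14 (SE), with an unadjusted p of 0.0050 and an adjusted p of 0.865 (limma), and against 94.3 mg/kg it was -0.52 ± 0.14 (SE), with an adjusted p of 0.466 (limma). Angptl4, an inhibitor of lipoprotein lipase, was lower than the vehicle mean in all 6 animals at 94.3 mg/kg, with a log2 difference of -0.61 ± 0.26 (SE) and an adjusted p of 0.637 (limma). Klf9, of the glucocorticoid list, had a slope over dose rank of -0.09 ± 0.04 (SE) per step, with an adjusted p of 0.852 (limma), and its difference from vehicle reached an unadjusted p of 0.0509 at the lowest. The clock gene Bhlhe40 had a slope of -0.23 ± 0.09 (SE), with an adjusted p of 0.825 (limma).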
